A study of Arabidopsis thaliana with 6 samples.

Results

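The genes described here act in the Casparian strip and the endodermis of Arabidopsis thaliana. They are 9 of the 27241 genes tested, and they were followed in whole seedlings of the mutant naa20-1 and the accession Col-0. They were chosen by locus code, with earlier results of these data known. Of these, 6 are structural, namely CASP1 (AT2G36100), CASP2 (AT3G11550), CASP4 (AT5G06200), CASP5 (AT5G15290), ESB1 (AT2G28670) and PER64 (AT5G42180). The other 3 are the regulators MYB36 (AT5G57620) and SCR (AT3G54220) and the receptor kinase GSO1 (AT4G20140), also called SGN3. Each of the 9 had 1 probe set.

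Transcript levels were measured on 6 arrays, 3 of naa20-1 and 3 of wild-type Col-0. Per the series' design text, naa20-1 has less of the catalytic subunit of NatB, a complex that adds acetyl groups to the N-termini of proteins. Both genotypes were 17 days old, grew on MS medium under short days with no further treatment and carried no other allele or agent that the labels name. The sources used here do not give the nature of the allele or the number of seedlings per sample.

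The Casparian strip is a ring of lignin in the walls of the endodermis, the innermost cortical layer of the root, and it stops water and ions from passing between cells into the vascular tissue. CASP proteins form a platform in the plasma membrane that marks where the ring is laid down, and the dirigent-like protein ESB1 and the peroxidase PER64 act in the wall beneath it. MYB36 is a transcription factor that switches these builders on, SCR is a GRAS factor that specifies the endodermis, and GSO1 binds the CIF peptides that report gaps in the ring. Older endodermal cells add suberin, a waxy polymer.

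Values are log2 expression as deposited after RMA, ± SD over 3 arrays per group, and differences are given as naa20-1 minus Col-0 with the moderated SE of limma. A gene was called at a Benjamini-Hochberg adjusted p under 0.05 over the 27241 genes. Nothing in the labels says that the samples of a group were separate cultures, so the p-values cover just the scatter among these samples, possibly technical.

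Most markers of both shoot and root lay above the 25th percentile of the table, 3.72. This held for all 6 green shoot markers and 26 of 28 markers of root tissues outside the endodermis. Of all 27241 genes, 6690 lay under it. Of the 9 members only MYB36 lay under it. With no detection calls, a value above this percentile does not show that the transcript was present. NAA20 (AT1G03150, named from general knowledge of the gene) was at 8.10, 7.60 and 7.36 in naa20-1, against 8.79, 8.75 and 8.72 in Col-0, a log2 difference of -1.07 (SE 0.18, adjusted p = 0.0407). Leaving out naa20-1 replicate 2 or 3, or any Col-0 array, gave NAA20 adjusted p-values of 0.0770 to 0.135, and without naa20-1 replicate 1 it was 0.0181. NAA25, the auxiliary subunit, averaged 8.46 ± 0.03 in naa20-1 and 8.37 ± 0.03 in Col-0 (adjusted p = 0.669). Among the naa20-1 arrays, replicate 3 correlated least with the rest of its group, by a small margin (mean r = 0.993, against 0.994 for replicates 1 and 2). The naa20-1 replicate 1 column held 27643 distinct values where each other column held 10229. The labels do not give the reason, and its bearing on the values of this array was not tested.

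The structural genes were lower in naa20-1 on the arrays, but 0 of the 9 members were called. In 5 of the 6 structural genes all 3 naa20-1 values lay under all 3 Col-0 values, as in GSO1, whereas all naa20-1 values lay under all Col-0 values in 10.5% of all genes. An unadjusted p under 0.05 with a lower value in naa20-1 was found for the same 5 structural genes and GSO1, against 7.19% of all genes. The members were chosen with earlier results of these data known. Their excess over these shares is therefore no independent evidence. With the adjusted p, 0 of the 9 were called in either direction, against 1.15% of all genes (313 of 27241), made up of 0.767% lower and 0.382% higher in naa20-1. The median log2 difference was -0.52 over the 6 structural genes, 0.079 over the regulators and the receptor, and 0.0051 over all genes. For the regulators and the receptor this median is the value of SCR, and their mean was -0.016, with GSO1 at -0.25. In bulk RNA, fewer endodermal cells and less RNA per cell cannot be told apart.

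**Figure D1:**
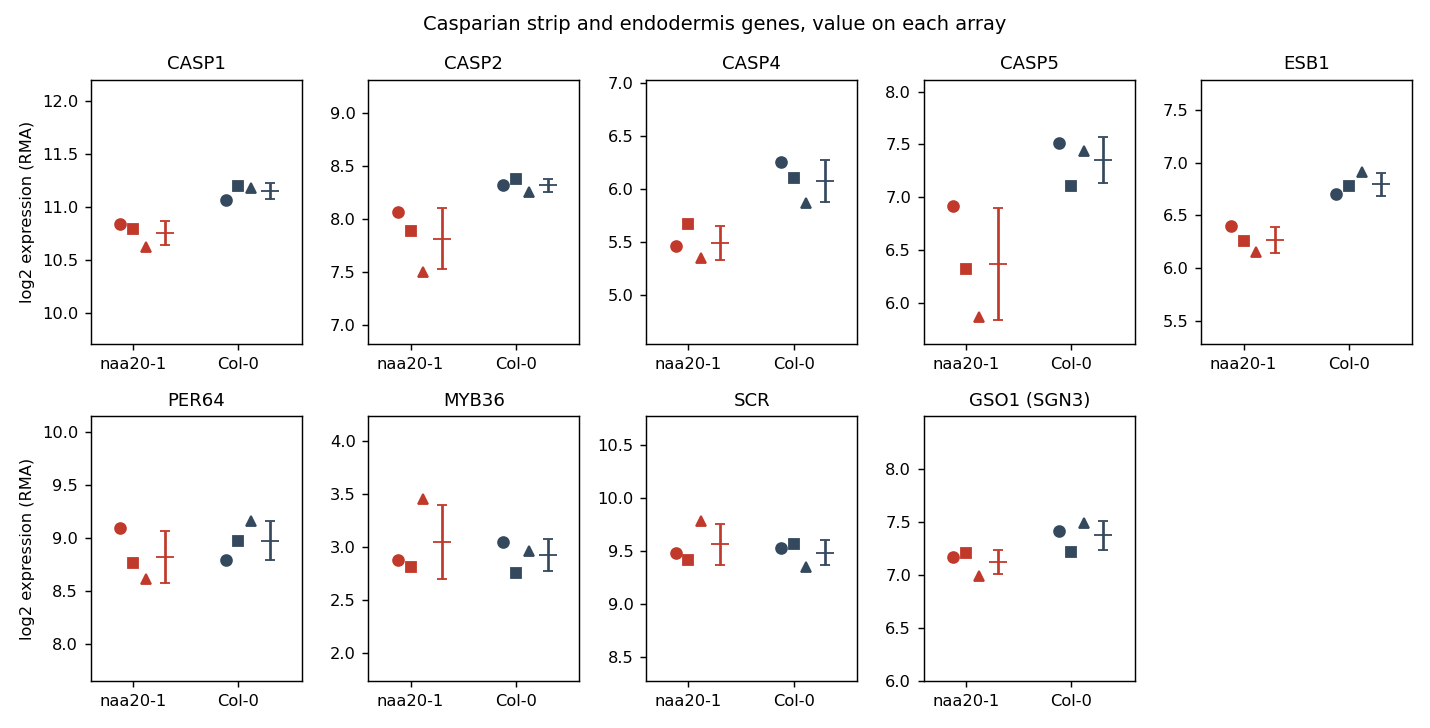
Log2 expression (RMA) of the 9 genes on each array, naa20-1 left and Col-0 right, with circles, squares and triangles for replicates 1, 2 and 3 and bars for the mean ± SD of 3 arrays. Every panel spans the same range of log2 units, and the naa20-1 points of CASP1, CASP2, CASP4, CASP5, ESB1 and GSO1 lie below all Col-0 points.

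CASP1 was at 10.84, 10.80 and 10.63 in naa20-1, against 11.07, 11.20 and 11.18 in Col-0. The groups did not overlap, and each kept within a narrow band. The means were 10.76 ± 0.11 in naa20-1 and 11.15 ± 0.07 in Col-0, a difference of -0.40 (SE 0.10, 1.32-fold lower, adjusted p = 0.122).

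CASP2 was at 8.06, 7.88 and 7.49 in naa20-1, against 8.32, 8.38 and 8.26 in Col-0. All naa20-1 values were lower than any in Col-0, and naa20-1 replicate 3 was the lowest. The difference was -0.51 (SE 0.15, adjusted p = 0.176).

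CASP4 was at 5.45, 5.66 and 5.34 in naa20-1, against 6.25, 6.10 and 5.86 in Col-0. The groups did not overlap, and the naa20-1 array with the highest value was replicate 2 here. The difference was -0.59 (SE 0.13, adjusted p = 0.102).

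CASP5 had the largest difference of the 9 genes and the widest spread in naa20-1. It was at 6.92, 6.33 and 5.86 in naa20-1, against 7.51, 7.11 and 7.43 in Col-0. The naa20-1 values lay below those of Col-0 and ranged over more than the distance between replicate 1 and Col-0. The difference was -0.98 (SE 0.25, 1.98-fold lower, adjusted p = 0.141), and it was -0.73 without naa20-1 replicate 3 and -1.26 without naa20-1 replicate 1 (adjusted p = 0.0521).

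ESB1, the dirigent-like protein gene whose loss leaves the ring patchy, came closest to the threshold. It was at 6.40, 6.26 and 6.15 in naa20-1, against 6.70, 6.78 and 6.91 in Col-0. Both groups were tight and did not overlap. The means were 6.27 ± 0.12 in naa20-1 and 6.80 ± 0.11 in Col-0, a difference of -0.52 (SE 0.10, 1.44-fold lower, adjusted p = 0.0687).

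PER64, the peroxidase that CASP1 helps to place, was the exception among the structural genes. It was at 9.09, 8.77 and 8.61 in naa20-1, against 8.79, 8.97 and 9.16 in Col-0. The groups overlapped, with naa20-1 replicate 1 above both Col-0 replicates 1 and 2. The difference was -0.15 (SE 0.15, 95% interval -0.50 to 0.20, adjusted p = 0.714), so a change of the size of that of CASP1 is within the interval.

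The call of 2 structural genes depended on the variance model. With a variance trend and robust fit, CASP1 (adjusted p = 0.0123) and ESB1 (adjusted p = 0.0418) were called lower, where 1.78% of all genes were called lower. With the dimmest 40% of probe sets removed, ESB1 was called (adjusted p = 0.0345), where 1.69% of the genes kept were called lower. Over all 12 alternatives the adjusted p ran from 0.0123 to 0.297 for CASP1 and from 0.0345 to 0.209 for ESB1, and both differences stayed below 0.

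**Figure D2:**
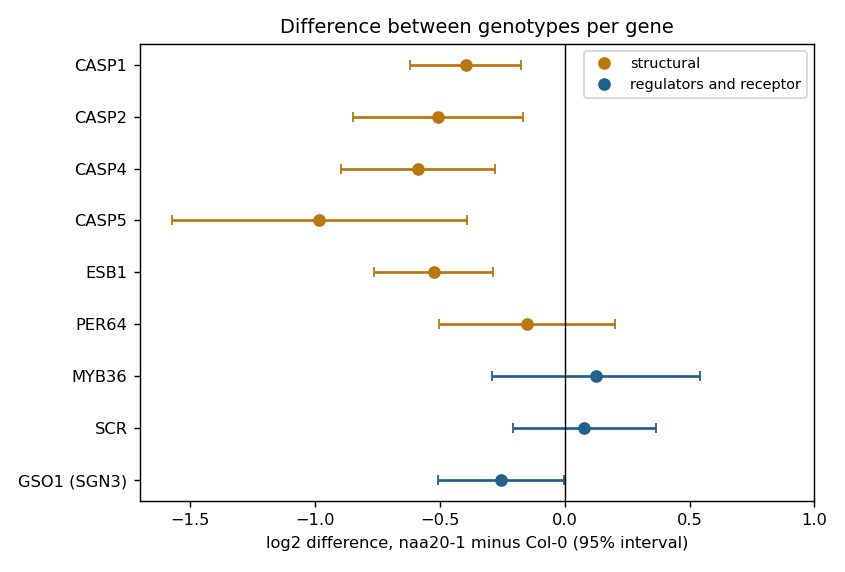
Log2 difference of each gene, naa20-1 minus Col-0, with its 95% interval from limma, not adjusted for the number of genes. Structural genes run from -0.98 (CASP5) to -0.15 (PER64), MYB36 and SCR lie slightly above 0, and GSO1 lies at -0.25.

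In the regulators MYB36 and SCR the groups overlapped, as they did in PER64. MYB36 was at 2.88, 2.81 and 3.45 in naa20-1, against 3.05, 2.76 and 2.96 in Col-0. All 6 values were under 3.72, the 25th percentile given above, and could be background signal, so they say little about the transcript. The difference was 0.13 (SE 0.18, 95% interval -0.29 to 0.54, adjusted p = 0.804), and without naa20-1 replicate 3 it was -0.078.

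SCR, which is also active in the stem endodermis, was at 9.48, 9.42 and 9.78 in naa20-1, against 9.53, 9.57 and 9.35 in Col-0. The groups overlapped, and naa20-1 replicate 3 was the highest of the 6 arrays. The difference was 0.079 (SE 0.12, 95% interval -0.21 to 0.36, adjusted p = 0.821), and without naa20-1 replicate 3 it was -0.031. The interval leaves out a fall as large as that measured for CASP1, -0.40. The 95% interval of CASP1 itself, -0.62 to -0.17, overlaps that of SCR, and a difference between these genes was not tested.

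GSO1, the receptor, was at 7.17, 7.21 and 6.99 in naa20-1, against 7.41, 7.22 and 7.49 in Col-0. The groups did not overlap, but naa20-1 replicate 2 and Col-0 replicate 2 were almost level. The difference was -0.25 (SE 0.11, 95% interval -0.51 to -0.0014, unadjusted p = 0.0490 in limma, adjusted p = 0.348).

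Structural genes were set against the regulators and the receptor on each array, with every gene centred on its Col-0 mean. The mean of the 6 structural genes minus the mean of MYB36, SCR and GSO1 was -0.23, -0.38 and -0.91 in naa20-1, against -0.074, 0.057 and 0.017 in Col-0, in the order of replicates 1, 2 and 3. All naa20-1 arrays lay lower, with a mean difference of -0.51, and replicate 1 lay closest to Col-0. Without the dim MYB36, a choice made after seeing the data, the values were -0.21, -0.38 and -0.72 in naa20-1, against -0.046, 0.013 and 0.033 in Col-0. This score over chosen genes was not tested.

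CASP1, CASP2, CASP4 and CASP5 also correlated with each other across the 6 arrays. Their mean, called the CASP mean here and centred in the same way, was -0.40, -0.56 and -0.89 in naa20-1, against 0.0645, -0.025 and -0.039 in Col-0. The Col-0 arrays lay closer together than the naa20-1 arrays. Across the 6 arrays, Pearson's r between pairs of the 4 genes ran from 0.785 to 0.943, and ESB1 had an r of 0.934 with their mean. PER64 had 0.588, GSO1 0.853, SCR -0.546 and MYB36 -0.566. These correlations are descriptions over arrays that also share the split by genotype. After each group's mean was removed, r with the CASP mean was 0.704 for CASP1, 0.96 for CASP2, 0.474 for CASP4 and 0.914 for CASP5. For ESB1 it was 0.580. Each of the 4 CASP genes is itself part of that mean. The 4 genes are related in sequence, their probe sequences were not used here, and cross-hybridisation between them was not tested.

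The array order of the CASP mean was that of NAA20 within naa20-1, with replicate 1 highest and replicate 3 lowest in both. Over the 6 arrays NAA20 had an r of 0.984 with the CASP mean, and of 0.911 after each group's mean was removed, where the residual spread is mostly that of the naa20-1 arrays. The 10 genes most like the CASP mean, named below and chosen for that likeness, had 0.941 to 0.997 after the same removal. The share of all genes with an r as high after the removal was not computed. The r of NAA20 thus has no background here, and a link between NAA20 and the CASP genes was not tested. Over all probe sets, replicate 3 correlated slightly less with its group (mean r = 0.993) than replicates 1 and 2 did (0.994 each). The column of replicate 1, the naa20-1 array closest to Col-0 in the CASP mean, differed from the others in its count of distinct values. The parts of replicates 1 and 3 in the array order were not tested.

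High correlations with the CASP mean were common over so few arrays. Of 7409 other genes with a range of at least 0.5 and a mean at or over the 25th percentile, 151 had an r of at least 0.95. The 10 most alike were PTI1-4 (r = 0.998), AT5G46450 (0.997), RLM3 (0.996), PUP7 (0.992), AT1G76240 (0.991), FAD3 (0.990), BIR1 (0.990), HIR2 (0.989), ERD6 (0.988) and AT1G72410 (0.987), each over 6 arrays. None of these was in a list of endodermis, suberin or root genes used here. The members were left out of this ranking and the lists are short beside 7409 genes, so this absence says little about the profile. These 10 genes were chosen for likeness to a mean that is lower in naa20-1, so their lower values follow from the choice. Their calls, given below with the shares over all genes, are therefore no independent evidence. HIR2, which codes for a hypersensitive-induced reaction protein, fell in naa20-1 (9.04 ± 0.31 in naa20-1, 10.05 ± 0.04 in Col-0, adjusted p = 0.0317), and the other 9 did not pass the test. With a variance trend and robust fit, RLM3 (adjusted p = 0.0187), PUP7 (0.0386), FAD3 (0.0053), BIR1 (0.0295) and ERD6 (0.00525) were also called lower, where 1.78% of all genes were called lower. FAD3 (0.0383) and ERD6 (0.0316) were called lower without the dimmest 40% too, where 1.69% of the genes kept were called lower. The call of HIR2 was lost without naa20-1 replicate 2 (adjusted p = 0.0717) and without Col-0 replicate 1 (0.114), 2 (0.102) or 3 (0.1198).

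Further builders of the strip had a median difference closer to 0 than that of the structural genes. Of 13 listed genes (peroxidases, a laccase, dirigent-type genes, uclacyanins, the exocyst subunit EXO70A1 and the oxidase RBOHF), 0 were called by limma, 3 were at an unadjusted p under 0.05 (all lower in naa20-1), 11 differences were negative and the median was -0.14. Over all genes, 1.15% were called and 7.19% were lower at an unadjusted p under 0.05. The differences ran from -0.47 to 0.15, a range that overlaps that of the structural genes. All naa20-1 values lay under those of Col-0 in 2 of 13, against 10.5% of all genes. AT3G24020 was at 7.02, 6.73 and 6.55 in naa20-1, against 7.10, 7.16 and 7.17 in Col-0 (difference -0.38, SE 0.13, adjusted p = 0.232). UCC1, a copper-binding uclacyanin, was at 7.88, 7.72 and 7.48 in naa20-1, against 7.87, 8.12 and 8.25 in Col-0 (difference -0.39, SE 0.14, adjusted p = 0.267). In both genes naa20-1 replicate 3 was the lowest array.

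In the list of CIF and SGN3 signalling, 1 of 7 genes was called, against 1.15% of all genes. RBOHD, an NADPH oxidase better known from immunity and wounding, fell in naa20-1, at 9.12, 9.06 and 9.15 in naa20-1, against 9.62, 9.66 and 9.63 in Col-0 (difference -0.52, SE 0.08, adjusted p = 0.0310). The call of RBOHD was lost when any single array was left out, with adjusted p-values of 0.0609 without naa20-1 replicate 3, 0.0860 without naa20-1 replicate 1, 0.107 without naa20-1 replicate 2, and 0.101, 0.122 and 0.118 without Col-0 replicates 1, 2 and 3. GSO2, the closest relative of GSO1, was dim, at 3.54 ± 0.16 in naa20-1 and 3.80 ± 0.23 in Col-0 (adjusted p = 0.468). The other 5 genes did not pass the test.

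Genes of endodermis identity, with relatives of MYB36, had differences on both sides of 0. Of 13, 0 were called by limma and 0 were at an unadjusted p under 0.05, 0 had groups that did not overlap, and the median difference was -0.0095. Over all genes, 1.15% were called, and the groups did not overlap in 10.5% (naa20-1 lower) and 10.6% (naa20-1 higher). SHR, the mobile partner of SCR, averaged 5.08 ± 0.11 in naa20-1 and 5.09 ± 0.21 in Col-0 (difference -0.0049, SE 0.13). SHR was not among the genes with the smallest p of this list in limma, which were JKD and AT3G45260. JKD, a zinc-finger factor that works with SCR, differed by -0.23 (SE 0.14, adjusted p = 0.538) and AT3G45260 by 0.20 (SE 0.13, adjusted p = 0.545). Without naa20-1 replicate 3 these differences were -0.078 for JKD and 0.072 for AT3G45260. Leaving out naa20-1 replicate 2 turned the median to 0.046.

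The suberin genes had a positive median difference, which rested on naa20-1 replicate 3. Of 16, 0 were called by limma, 3 were at an unadjusted p under 0.05 (all higher in naa20-1), 10 differences were positive and the median was 0.11. Over all genes, 1.15% were called, 7.02% were higher at an unadjusted p under 0.05, and 13939 of 27241 differences were positive. FAR1, a reductase that makes the fatty alcohols of suberin, was at 10.53, 10.57 and 10.39 in naa20-1, against 10.13, 10.12 and 10.07 in Col-0 (difference 0.39, SE 0.09, adjusted p = 0.101). It was called higher with a variance trend and robust fit (adjusted p = 0.0104), where 311 of 27241 genes were called higher. Without the dimmest 40% it was also called higher (0.0477), as were 151 of 16345 genes. KCS2, a fatty acid elongase, was at 9.10, 9.04 and 10.27 in naa20-1, against 8.29, 8.51 and 8.58 in Col-0 (difference 1.01, SE 0.31, adjusted p = 0.198), and the difference was 0.61 without naa20-1 replicate 3. Naa20-1 replicate 3 carried the list: its mean was 0.32, against 0.04 and 0.01 on replicates 1 and 2 and -0.01 to 0.01 in Col-0, and without it the median was -0.066.

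**Figure D3:**
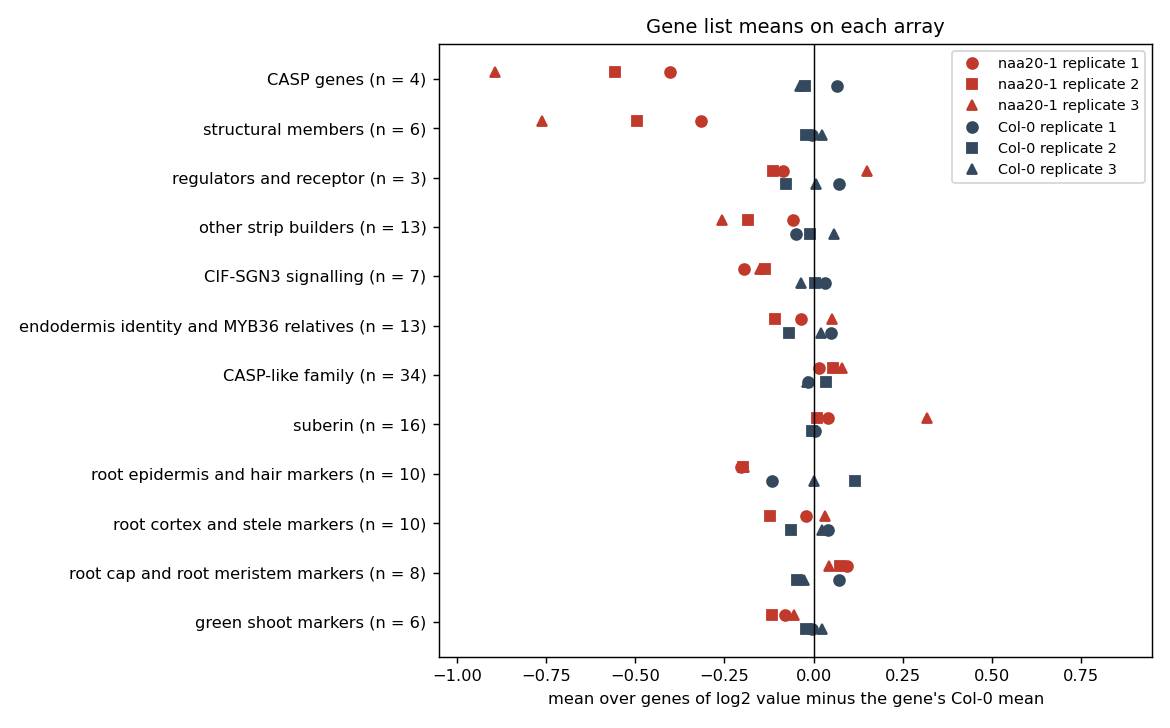
Mean over the genes of each list of the log2 value minus the gene's Col-0 mean, for each array (red naa20-1, dark blue Col-0, symbols by replicate). The 4 CASP genes and the structural genes lie furthest from Col-0 on all 3 naa20-1 arrays, while the root marker lists stay within 0.21 of 0.

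Markers of other root tissues had smaller differences on average than the CASP genes. Of 28 markers outside the endodermis, 0 were called by limma, 6 were lower and 2 higher at an unadjusted p under 0.05, 15 differences were negative and 13 positive, and the median was -0.058. At that unadjusted p, 7.19% of all genes were lower and 7.02% higher. All naa20-1 values lay under Col-0 in 6 of 28 and above it in 2 of 28, against 10.5% and 10.6% of all genes. Their mean, centred on Col-0, was -0.05, -0.09 and -0.04 in naa20-1, against -0.01, 0.01 and 0.00 in Col-0. The CASP mean minus this root mean was -0.35, -0.46 and -0.85 in naa20-1, against 0.071, -0.031 and -0.040 in Col-0. This difference was not tested.

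Markers of root epidermis and hairs had mostly negative differences. Of 10 such markers, 9 differences were negative, and the list mean was -0.20, -0.20 and -0.19 in naa20-1, against -0.12, 0.12 and 0.00 in Col-0. LRX1, a cell wall protein of root hairs, differed by -0.42 (SE 0.12, adjusted p = 0.168) and PRP3, a proline-rich protein of root hairs, by -0.45 (SE 0.13, adjusted p = 0.172). The list means of these arrays were level in naa20-1, unlike the CASP mean.

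Of the 10 markers of cortex and stele, 3 differences were negative and 7 positive. TIP2;3, a tonoplast aquaporin, was at 9.65, 9.33 and 9.75 in naa20-1, against 10.29, 10.21 and 10.32 in Col-0, and missed the threshold narrowly (difference -0.69, SE 0.12, adjusted p = 0.0500024). It was called lower with each array centred on its median (adjusted p = 0.0496), where 212 of 27241 genes were called lower. Without the dimmest 40% it was called lower (0.0271), as were 1.69% of the genes kept. The same held with a variance trend and robust fit (0.00374), where 1.78% of all genes were called lower. The cytokinin receptor gene WOL differed by -0.37 (SE 0.10, adjusted p = 0.147). Among 8 markers of root cap and meristem the median was 0.12, with EIR1 (PIN2), the auxin efflux carrier of root tips, at -0.23 (SE 0.09, adjusted p = 0.316) and NAC070 (BRN2), a root cap factor, at 0.39 (SE 0.17, adjusted p = 0.372). The 6 green shoot markers had a median of -0.095, with CA1, a carbonic anhydrase, at -0.17 (SE 0.08, adjusted p = 0.407) and GAPA, an enzyme of carbon fixation, at -0.15 (SE 0.08, adjusted p = 0.466).

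The wider CASP-like family pointed both ways. It holds membrane proteins related to the CASP proteins, and 34 such genes were measured. None was called, against 1.15% of all genes, 12 differences were negative and 22 positive, and the median was 0.066, against -0.55 for the 4 CASP genes. An unadjusted p under 0.05 in limma was found for 4 that were lower and 5 that were higher in naa20-1, against 7.19% and 7.02% of all genes.

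CASPL4D1 (AT2G39530) was at 5.66, 5.22 and 5.27 in naa20-1, against 6.06, 5.99 and 6.04 in Col-0, with no overlap (difference -0.65, SE 0.13, adjusted p = 0.0721). CASPL4B1 (AT2G38480) stood on the other side, at 6.12, 6.33 and 6.16 in naa20-1, against 5.73, 5.71 and 5.81 in Col-0 (difference 0.45, SE 0.09, adjusted p = 0.0799). Both were called without the dimmest 40% (adjusted p = 0.0410 and 0.0385), where 276 of 16345 genes were called lower and 151 higher. CASPL4D1 was also called with a variance trend and robust fit (0.0442), where 1.78% of all genes were called lower. Without naa20-1 replicate 1 CASPL4D1 was called too (0.0340), as were 120 of 27241 genes in that direction.

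**Figure D4:**
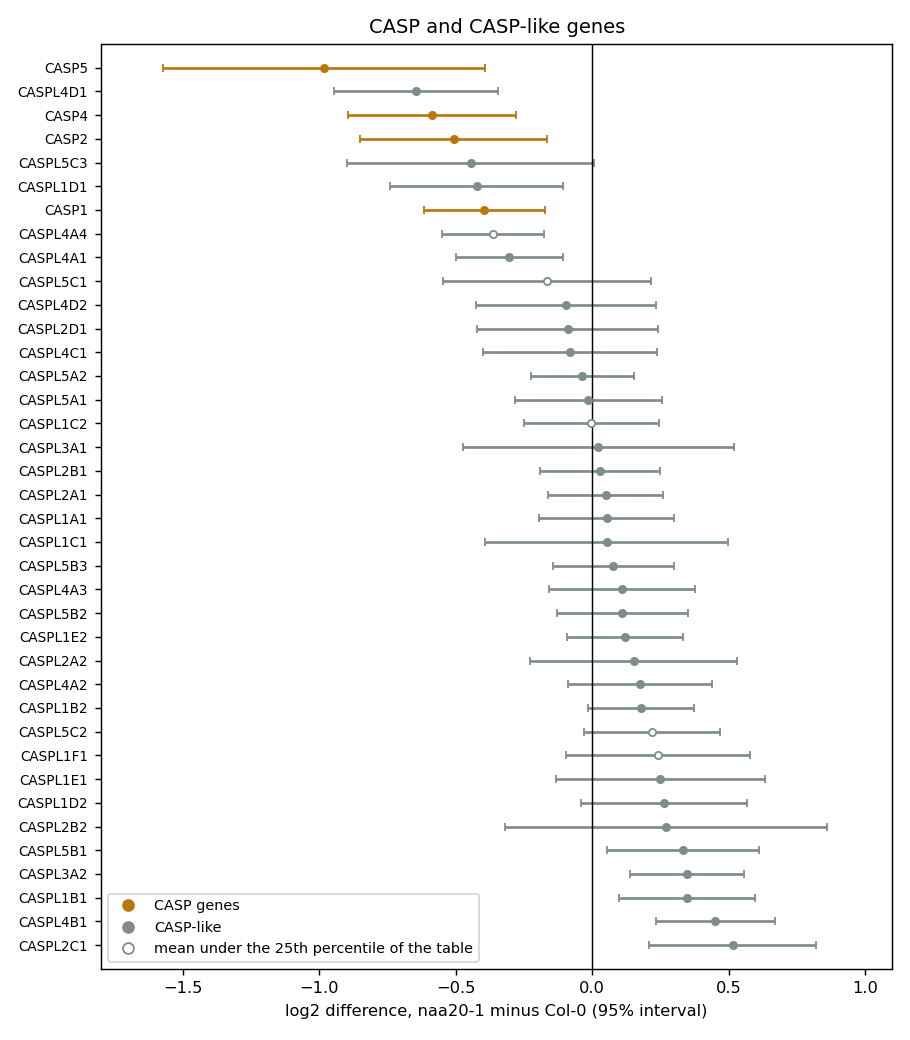
Log2 difference, naa20-1 minus Col-0, with its 95% interval (limma, not adjusted for the number of genes) for the 4 CASP genes and 34 CASP-like genes, sorted by difference. Open points mark genes whose mean was below the 25th percentile. The 4 CASP genes lie toward the low end and the CASP-like genes spread on both sides of 0.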

How the data were processed

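RNA of 3 naa20-1 and 3 Col-0 seedling samples was measured on 1 array each. The authors deposited 27827 probe sets as log2 values made with RMA (per the submitters' processing notes, with no version). This method corrects background, makes the arrays' distributions equal and summarises probes, so a shift common to all genes cannot be seen. The sources used here name neither the array type nor the probes, and no detection calls were used. Precision is limited by the number of arrays.

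Locus codes were matched to the RefSeq gene table (TAIR10.1), which took in 27241 genes. The other 586 probe sets entered only 1 alternative. In the lists other than the CASP-like family, 14 loci carry no symbol there, were placed from general knowledge and, where named, are given by locus code. The 34 CASP-like genes are named from that table's synonyms.

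Values were fitted as deposited with limma 3.58.1 under R 4.3.3, by lmFit and eBayes (genotype only, two-sided, Benjamini-Hochberg over 27241 genes), after a check on simulated data. Members and lists were chosen with earlier results of these data known, so the lower CASP values are no independent evidence. The named genes are the members, NAA20 and NAA25, in each list up to 4 called genes or else the 2 with the smallest p, and the 10 genes most like the CASP mean. SHR, EXO70A1 and RBOHF are named outside this rule, the last 2 without values. The rule for the members also took in 1 gene that is not reported here. Deviations from group means of same-numbered samples correlated at 0.0238, 0.0623 and 0.0127, so the samples were not treated as paired. These numbers are those of the titles, and the description labels of naa20-1 number replicates 2 and 3 differently. Other matchings of the arrays were not checked, so a pairing under other numbers would not be seen. Alternatives were a repeated quantile normalization, median centring, removal of the dimmest 40% of genes, a variance trend with robust fit, all probe sets, the replicate block, and each array left out. Protein sequences were not used here, so the planned comparison of first residues was not made.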

Additional observations from a re-analysis of the deposited data

How the results depend on the processing

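The differences of CASP1, CASP2, CASP4, CASP5, ESB1, PER64 and GSO1 stayed below 0 under all 12 alternatives. MYB36 and SCR turned to -0.078 and -0.031 without naa20-1 replicate 3 (their ranges over single arrays left out were -0.078 to 0.24 and -0.031 to 0.15), and PER64 ranged from -0.29 to -0.046. The count of members called was 1 without the dimmest 40% and 2 with a variance trend and robust fit, and 0 elsewhere. Over all genes, 104 were called higher and 209 lower. These counts were 311 and 486 with a variance trend and robust fit, and 11 to 63 and 51 to 134 with 1 array left out. With the replicate block, 61 were called higher and 129 lower, and the calls of NAA20 (adjusted p = 0.0543), RBOHD (0.105) and HIR2 (0.0581) were lost, although the samples share only a number in their titles. The structural minus regulator mean of -0.51 ran from -0.65 to -0.31 with 1 array left out and has no value without the dimmest 40%, which removes MYB36. The median of the endodermis identity list turned to 0.020 and that of root cap and meristem markers to -0.022 without the dimmest 40%. With 1 array left out, that of the identity list ran from -0.091 (without Col-0 replicate 2) to 0.046 (without naa20-1 replicate 2) and that of suberin from -0.066 (without naa20-1 replicate 3) to 0.14 (without Col-0 replicate 3). Apart from the alternatives' own construction, the cause was not tested. With no detection calls, values under the 25th percentile, such as those of MYB36, may be background.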
